A study of Caenorhabditis elegans with 39 samples.

Results

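A set of 78 CSR-1 class loci carried more 22G-RNAs in *mut-16* mutant distal gonads than in those of wild type *Caenorhabditis elegans*, on the scale of the deposited small RNA values. The loci were taken from 3640 CSR-1 class loci among 21815 small RNA features. A locus was a member when its 22G-RNA values averaged at least 100 normalized reads in wild type gonads, which 2849 loci did, and when the *mut-16* mean plus 1 was at least 1.8 times the wild type mean plus 1. The members were therefore chosen by the small RNA values of the *mut-16* and wild type gonad libraries, and their values in that contrast are given as a description with no test.

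The gonad groups were *mut-16(pk710)* mutants, *prg-1(n4357)* mutants and the N2 wild type strain, with 3 libraries each for small RNA and for mRNA. Both mutants were outcrossed to N2 shortly before use, and each is a single mutant allele. Animals were dissected as gravid adults after 68 to 70 h at 20°C, proximal arms were discarded, and distal arms of many animals were pooled for each library. Wild type whole animals, with 3 libraries per assay, were measured against wild type gonads in tables scaled on their own.

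22G-RNAs are small RNAs that begin with a guanine and are made by RNA-dependent RNA polymerases on the transcripts they are antisense to. In the germline they fall into a class bound by WAGO Argonautes, which silence their targets, and a class bound by the Argonaute CSR-1, whose targets are mostly expressed germline mRNAs. MUT-16 is the scaffold on which the polymerase complex for WAGO class 22G-RNAs assembles, and PRG-1 is the Argonaute of piRNAs, which act upstream of many WAGO class 22G-RNAs. CSR-1 class 22G-RNAs are made with EGO-1, another RNA-dependent RNA polymerase. The question put to the members was what happened to their mRNAs, and to their 22G-RNAs in *prg-1* mutants.

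The targeted mRNAs were low in the mutants labelled for them. *mut-16* mRNA averaged 949.9 ± 25.7 normalized reads across the *mut-16* libraries, against 2069 ± 17.9 for wild type, and *prg-1* mRNA averaged 5414 ± 802 across the *prg-1* libraries, against 10550 ± 600 for wild type (SD, n = 3 each). Small RNA reads worked back from the deposited values came to 2317176 to 3012349 in *mut-16* libraries, 2872222 and 4807115 in *prg-1* replicates 3 and 2, and 4215264 to 7051210 in wild type gonad libraries. WAGO class loci held 3.12% ± 0.42 of small RNA values in *mut-16* libraries and 50.6% ± 1.3 in wild type libraries, and the CSR-1 class held 82.1% ± 5.7 in *mut-16* and 44.5% ± 1.2 in wild type libraries (SD, n = 3). Sperm transcripts also differed between the groups: 63 of 82 tested sperm genes passed as higher in *mut-16*, and 76 did so in *prg-1* (limma). Their summed mRNA was 10051 to 18651 in *mut-16*, 14731 to 59758 in *prg-1* and 4058 to 6104 in wild type libraries, with 1 sperm gene at 0 in every library. The summed mRNA of 13 muscle markers was 2410 to 2794 in *mut-16*, 2571 to 4983 in *prg-1* and 1143 to 1364 in wild type libraries. That of 7 somatic gonad markers was 1392 to 2082 in *mut-16*, 1528 to 1836 in *prg-1* and 1212 to 1299 in wild type libraries. Intestine and hypodermis sums in *mut-16* overlapped wild type, at 135 to 296 against 130 to 620 and 787 to 839 against 797 to 937. Neuron sums were lower in *mut-16*, at 485 to 527 against 549 to 588. Intestine, hypodermis and neuron sums of *prg-1* overlapped wild type. No member belongs to the sperm, muscle or somatic gonad lists, and the part of these genes in the results was not tested. Bulk libraries cannot tell fewer cells of a type from less RNA per cell.

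The largest 22G-RNA ratio was that of *lsl-1*, which encodes a zinc-finger protein. Its 22G-RNAs were at 799.8, 841.2 and 861 normalized reads in *mut-16* gonads, at 196.3, 183 and 220.5 in *prg-1* gonads, and at 210.3, 204.1 and 186.5 in wild type gonads, a ratio of 4.15 of *mut-16* to wild type. The *mut-16* libraries stood apart from the other 6, which overlapped. No other member reached a ratio of 3, and 29 of the 78 reached 2. *F54D5.9* followed with 744.7, 683.9 and 733.1 normalized reads in *mut-16*, 424.5, 409.2 and 322.1 in *prg-1* and 266, 267.9 and 254.3 in wild type gonads (ratio 2.74). *ZK673.2* had 506.1, 543.1 and 524.5 in *mut-16*, 391.6, 361.3 and 438.9 in *prg-1* and 193.6, 194.1 and 232.9 in wild type gonads (ratio 2.53). At both loci the *prg-1* libraries lay between the other groups. *rnf-1*, a RING finger gene, had 514.4, 491 and 536.3 in *mut-16*, 228.2, 229.7 and 203.2 in *prg-1* and 215.9, 216.2 and 200.5 in wild type gonads, and here *prg-1* and wild type overlapped as at *lsl-1*. *attf-6*, an AT-hook gene, held more reads: 3323, 3508 and 3628 in *mut-16*, 1719, 1803 and 1948 in *prg-1* and 1566, 1485 and 1453 in wild type gonads. The other ratios among the leading 12 ran from 2.31 at *Y38E10A.22* through 2.22 at *emr-1*, 2.22 at *nse-1*, 2.19 at *Y54G2A.18*, 2.18 at *efa-6* and 2.17 at *T04A8.8* to 2.16 at *bed-1*.

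**Figure D1:**
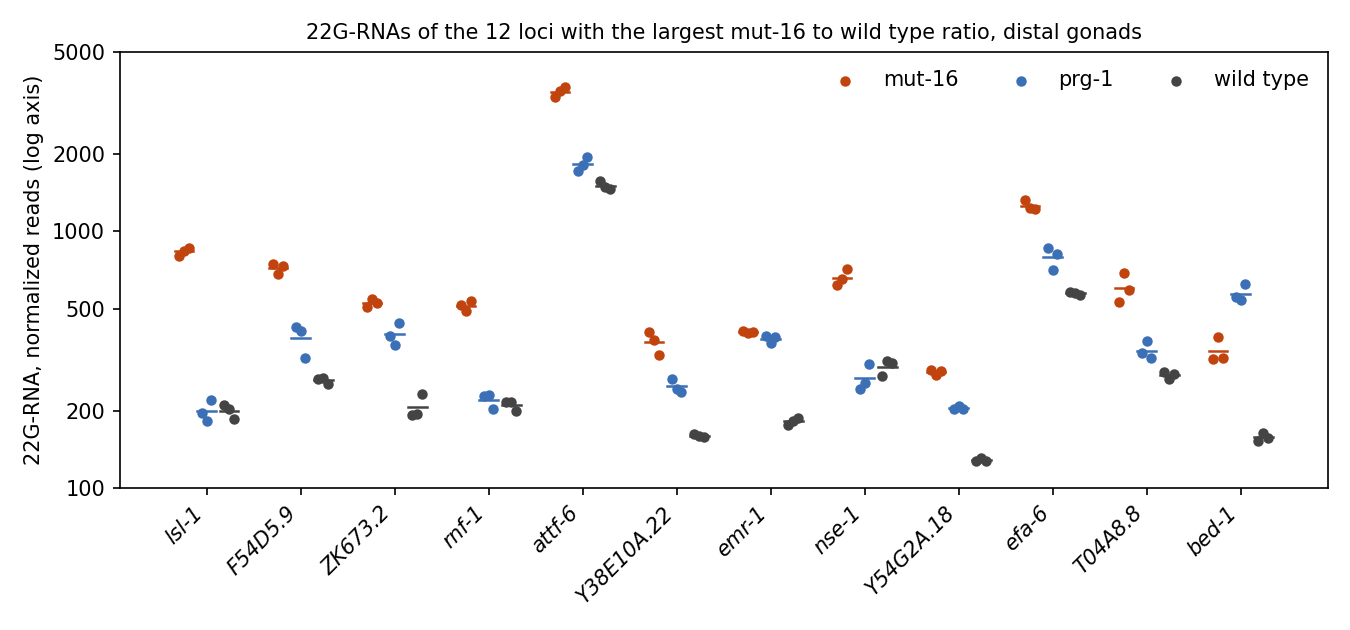
Normalized 22G-RNA reads (log axis) of the 12 members with the largest *mut-16* to wild type ratio. Points are the 3 distal gonad libraries of *mut-16*, *prg-1* and wild type, and short lines are means. At *lsl-1* the *mut-16* libraries sit at 799.8 to 861 and the *prg-1* and wild type libraries at 183 to 220.5, while at *bed-1* the *prg-1* libraries are the highest.

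Over all 78 members the median ratio was 1.93, with 25% and 75% points of 1.87 and 2.04, so most members lay close to the threshold. The 2771 other CSR-1 class loci that averaged at least 100 had a median ratio of 1.24. In every member the 3 *mut-16* libraries were all above the 3 wild type libraries, which also held for 62.9% of those other loci and for 37% of all 8031 small RNA features tested. Just inside the threshold were *cec-7* (1.808), *wago-1* (1.808), *sqv-5* (1.808), *oma-2* (1.807) and *aak-1* (1.804). Just outside were *eif-3.H* (1.799), *pges-2* (1.797), *ubxn-3* (1.796), *bud-31* (1.792) and *rbm-42* (1.790).

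The members with the most wild type 22G-RNA reads, which are not corrected for transcript length, include genes of chromatin, transcription and the cytoskeleton. *tba-2*, an alpha-tubulin gene, had 4081, 4334 and 4550 normalized reads in *mut-16*, 2437, 2375 and 3053 in *prg-1* and 2277, 2150 and 2393 in wild type gonads (ratio 1.90). *cec-7*, a chromodomain gene, had 3121, 3682 and 3355 in *mut-16*, 3263, 3442 and 3913 in *prg-1* and 1807, 1861 and 1947 in wild type gonads, so the mutants overlapped. The Argonaute gene *wago-1* had 2805, 2584 and 2611 in *mut-16*, 1536, 1466 and 1647 in *prg-1* and 1536, 1469 and 1418 in wild type gonads, and only *mut-16* stood apart. The other members with the highest wild type means included *attf-6* (ratio 2.32), given above, and *taf-2* (1.93), a subunit gene of the transcription factor TFIID. The rest were the DEAD-box helicase gene *ddx-17* (1.97), the histone demethylase gene *jmjd-2* (2.03), *cgh-1* (1.83), *ubxn-1* (1.97) and the proteasome gene *pbs-1* (1.95).

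The 78 members made up 2.73% ± 0.016 of all CSR-1 class 22G-RNA values in *mut-16* libraries, 1.75% ± 0.036 in *prg-1* libraries and 1.63% ± 0.022 in wild type libraries (SD, n = 3). The rule chose loci with a high *mut-16* to wild type ratio, so it fixes a larger share in *mut-16* than in wild type. The share does not depend on how libraries are scaled against each other. The size of the member ratio does. The median log2 ratio of the members was 0.95 as deposited, with 0.32 over the 2849 loci. With RLE (a median of log ratios) it was also 0.95 and 79 loci met the rule. With library totals made equal it was 1.59, and 1787 loci met the rule. With TMM (a trimmed mean of log ratios) over all features it was 0.66 and 8 loci met the rule. With TMM over miRNAs alone it was 0.054, 49 of the 78 were above 0 on the log2 scale, and only *lsl-1* met the rule. The miRNA values that set this last scaling summed to 106313 to 219457 in *mut-16* libraries, of which replicate 1 held the most, and to 67830 to 82903 in wild type libraries. The median of the members was above that of the 2849 loci under each of these scalings, as the choice of members fixes. Whether their 22G-RNAs were more abundant than in wild type depends on the scaling.

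**Figure D2:**
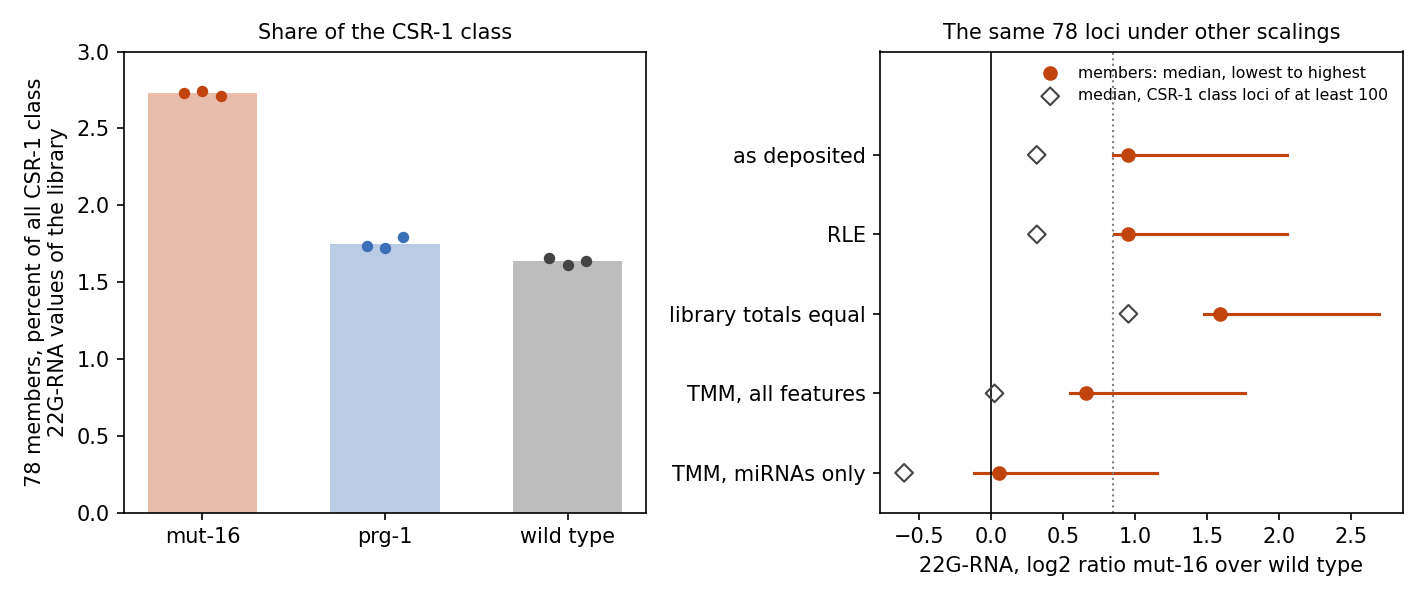
Left, the 78 members as a percent of all CSR-1 class 22G-RNA values in each distal gonad library (points, with bars at group means): 2.73% in *mut-16*, 1.75% in *prg-1* and 1.63% in wild type. Right, the log2 ratio of *mut-16* to wild type 22G-RNA under 5 scalings, with the members' median (filled point) and range (line) and the median of the CSR-1 class loci that averaged at least 100 (diamond). The dotted line is the threshold of 1.8 and the filled points run from 0.054 to 1.59. The choice of members fixes the larger share in *mut-16* than in wild type.

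In *prg-1* gonads the ratios of member 22G-RNAs to wild type had quartiles of 1.05 and 1.59, beside 0.91 and 1.28 for the other CSR-1 class loci. Of the 78, 43 were higher than in wild type (55.1%), 2 were lower and 33 did not pass (limma, adjusted p below 0.05 and at least 1.3-fold). Over all 8031 small RNA features tested, 15.3% were higher and 47.3% lower, and over the other CSR-1 class loci 22.7% were higher. The median log2 change of the members was 0.44, against 0.12 for those other loci and -0.42 for all features. The wild type libraries are the ones the rule used, so the choice of members bears on this comparison. The counts also moved with the scaling. They were 17 higher and 13 lower with equal library totals, where all 8271 features gave 537 and 4757. With TMM over all features they were 24 and 10, beside 624 and 4481 of all 8100. With TMM over miRNAs alone they were 0 and 44, beside 118 and 7012 of all 8241. The median of all features was -0.77, -0.70 and -1.73 in turn.

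The largest change in *prg-1* was at *bed-1*, with 554, 540.8 and 620.5 normalized 22G-RNA reads in *prg-1*, 317.2, 386.9 and 321.8 in *mut-16* and 152.5, 163.8 and 156.8 in wild type gonads (*prg-1* against wild type log2 1.85 ± 0.10 SE, adjusted p = 9.4e-08, limma). The 3 groups did not overlap. *his-72*, which encodes the histone variant H3.3, had 814.1, 674.8 and 741.6 in *prg-1*, 633, 650.7 and 572.7 in *mut-16* and 355, 342.5 and 294.2 in wild type gonads (1.17 ± 0.10, adjusted p = 1.7e-06, limma). *emr-1*, the gene of the inner nuclear membrane protein emerin, had 392.6, 366.1 and 387 in *prg-1*, 411, 402.3 and 404.4 in *mut-16* and 176.9, 182 and 187.5 in wild type gonads (1.06 ± 0.07, adjusted p = 4.7e-07, limma). At these genes 22G-RNAs of both mutants stood above wild type. The mean in *prg-1* exceeded that in *mut-16* at 3 members, *bed-1*, *his-72* and *cec-7*, lay between wild type and *mut-16* at 58, and was at or below wild type at 17.

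The 2 members whose 22G-RNAs passed as lower in *prg-1* encode RNA-binding proteins of the CCCH zinc-finger family that act in the oocyte and early embryo. *mex-5*, a polarity gene, had 376.7, 308.7 and 270.3 normalized reads in *prg-1*, 1041, 930 and 905.3 in *mut-16* and 552, 478.1 and 486.3 in wild type gonads (*prg-1* against wild type -0.67 ± 0.12, adjusted p = 0.00038, limma). *pos-1*, a cell fate gene, had 138.5, 126.8 and 125.4 in *prg-1*, 390.3, 356.1 and 352.3 in *mut-16* and 217, 198.1 and 184.7 in wild type gonads (-0.61 ± 0.10, adjusted p = 0.00025, limma). At both genes the order of the groups was *mut-16*, wild type, *prg-1*, with no overlap. The other oocyte genes among the members did not pass: *oma-2*, an oocyte maturation gene of the same family, was at log2 0.09 and *cpg-2*, an eggshell proteoglycan gene, at -0.11.

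**Figure D3:**
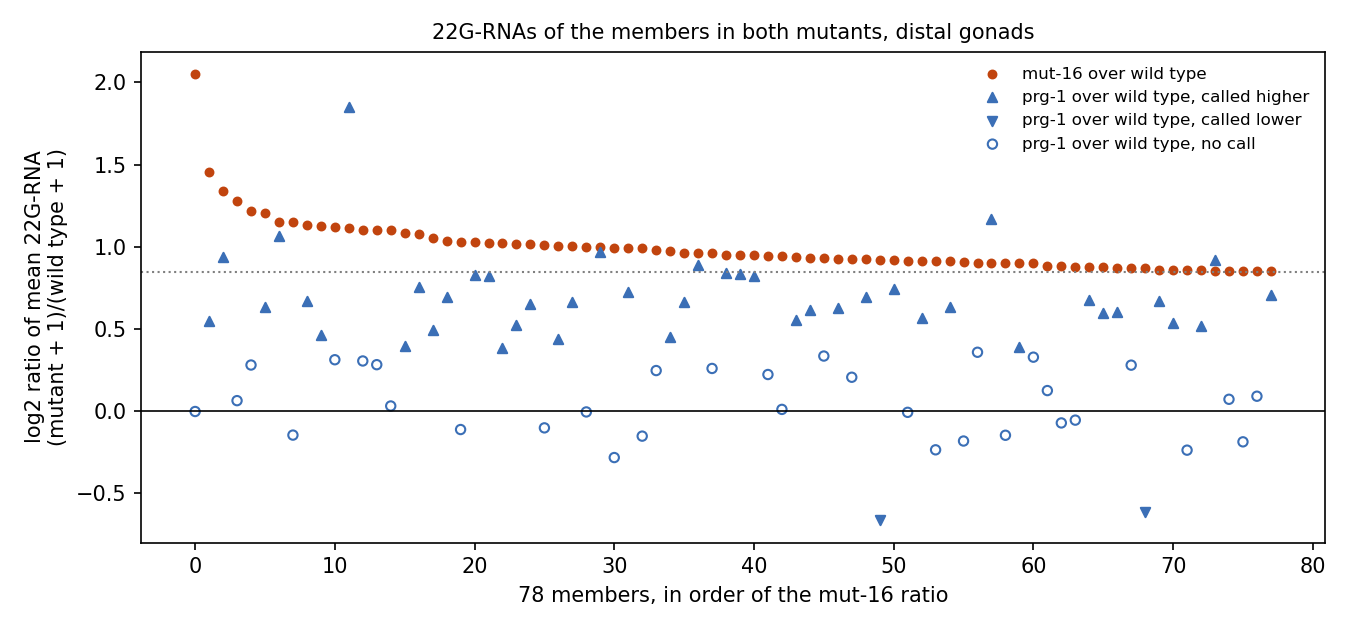
Log2 ratio of mean 22G-RNA to wild type for the 78 members, in order of the *mut-16* ratio, for *mut-16* (filled circles) and *prg-1* (triangles where the change passed the test, open circles where it did not). The dotted line is the ratio of 1.8 that chose the members. That choice and the ordering set the floor and the smooth course of the *mut-16* points. The *mut-16* ratios flatten from 2.05 at *lsl-1* to 0.85, while the *prg-1* ratios spread above and below 0, with 43 triangles up and 2 down. Both ratios share the wild type libraries.

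The mRNAs of the members, which the rule did not use, changed little in *mut-16* gonads. Of the 78, 2 were higher and 0 lower than in wild type (limma, adjusted p below 0.05 and at least 1.3-fold). Over all 9943 mRNAs tested, 15.5% were higher and 4.6% lower. Over the 2768 tested mRNAs of the other CSR-1 class loci, 0.253% were higher and 2.53% lower. Without the fold threshold, 14 members were higher and 6 lower, beside 18.5% and 12.6% of all mRNAs. At an unadjusted p under 0.05 they were 19 and 12, beside 24.8% and 18.8%. The median log2 change was -0.02, beside -0.08 for the other CSR-1 class loci, the middle range of members ran from -0.10 to 0.13, and 76 of 78 were within 1.3-fold of wild type. All 3 *mut-16* libraries were above wild type at 21 members and below at 20, while this held for 28.4% and 24.8% of all mRNAs and for 8.53% and 43.3% of the mRNAs of the other CSR-1 class loci. The count of lower members was 1 with TMM, 1 when wild type replicate 3 was left out and 2 when *mut-16* replicate 1 was. With equal-numbered libraries paired, 2 members were higher and 0 lower, where all 9202 mRNAs gave 1610 and 531.

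The 2 mRNAs that rose in *mut-16* were those of *F10G7.10* and *lsl-1*. *F10G7.10* mRNA was at 2867, 2953 and 2965 normalized reads in *mut-16*, 1776, 1702 and 1918 in *prg-1* and 1915, 2078 and 2062 in wild type gonads (*mut-16* against wild type log2 0.54 ± 0.05 SE, adjusted p = 7.4e-05, limma). *lsl-1* mRNA was at 1356, 1352 and 1416 in *mut-16*, 914.1, 1021 and 945.3 in *prg-1* and 981.9, 1036 and 961.3 in wild type gonads (0.47 ± 0.06, adjusted p = 0.00031, limma). In both genes the *mut-16* libraries lay above the other 6, as their 22G-RNAs did. For *lsl-1* the mRNA ratio was far smaller than the 22G-RNA ratio of 4.15. *F10G7.10* had 354.4, 429.5 and 373.9 normalized 22G-RNA reads in *mut-16* and 207, 206.8 and 200.5 in wild type gonads, near the threshold of the rule.

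Other leading members had smaller mRNA differences. *F54D5.9* mRNA was at log2 0.34 (adjusted p = 0.0068), *ZK673.2* at 0.22 (adjusted p = 0.0048) and *rnf-1* at 0.20 (adjusted p = 0.02), all by limma and under 1.3-fold, while *attf-6* was at -0.05. The most negative was *dcap-1*, a decapping gene picked here after its values were seen. Its mRNA was at 1071, 1044 and 1040 normalized reads in *mut-16*, 1081, 1311 and 1322 in *prg-1* and 1346, 1433 and 1304 in wild type gonads (-0.37, adjusted p = 0.0073, limma), just under the fold threshold. Across the 78 members Pearson's r between the 22G-RNA and mRNA log2 changes in *mut-16* was 0.45 (Spearman's rho 0.32), and 0.36 without *lsl-1*. Across 2846 CSR-1 class loci it was 0.17. These points share their libraries and genes are not independent replicates, so the coefficients are descriptive.

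**Figure D4:**
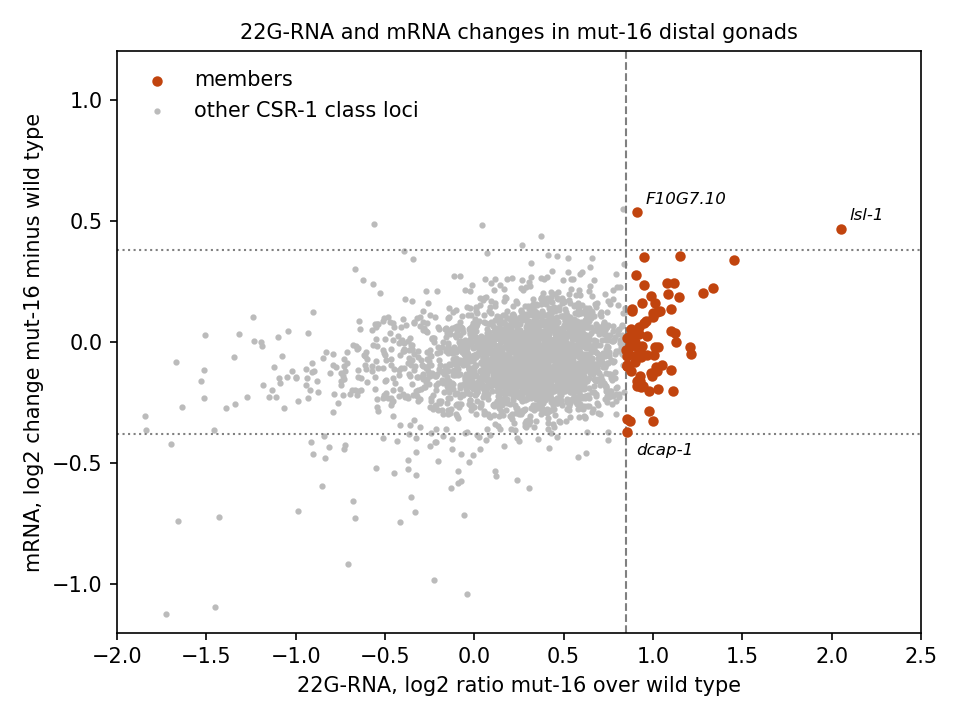
Log2 change in *mut-16* distal gonads of 22G-RNAs (horizontal) and mRNA (vertical) for the 78 members and the other CSR-1 class loci that averaged at least 100 (grey); 21 loci, no member among them, lie outside the axes. Dotted lines mark 1.3-fold and the dashed line the ratio of 1.8 that chose the members. The members fill the band between the dotted lines, with *F10G7.10* and *lsl-1* above it and *dcap-1* at its lower edge.

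In *prg-1* gonads 1 member mRNA was higher and 1 lower than in wild type, where all mRNAs gave 20.7% higher and 9.53% lower. The mRNAs of the other CSR-1 class loci gave 1.26% higher and 2.2% lower, beside 1.28% of the members in each direction. *emr-1* mRNA was at 533.4, 544.8 and 617.8 normalized reads in *prg-1*, 522.2, 573.9 and 562.8 in *mut-16* and 517.2, 419.2 and 370.5 in wild type gonads (*prg-1* against wild type 0.39 ± 0.11, adjusted p = 0.019, limma). The wild type libraries spread widely, and the call was lost when replicate 2 (0.37) or 3 (0.28) of wild type or replicate 3 of *prg-1* (0.32) was left out, with TMM (0.32) and with equal library totals (0.36). *yop-1*, which encodes a membrane-shaping protein of the endoplasmic reticulum, fell, with 206, 211.5 and 203.4 in *prg-1*, 239.5, 267.8 and 254.3 in *mut-16* and 285.8, 264 and 276.5 in wild type gonads (-0.41 ± 0.08, adjusted p = 0.0027, limma). The median over the members was -0.06, as it was for the other CSR-1 class loci. Without the fold threshold 6 members were higher and 18 lower, beside 24.3% and 18.3% of all mRNAs. The count of lower members was 3 and 2 when replicates 2 and 3 of wild type were left out in turn, and 4 when replicate 1 of *prg-1* was. *bed-1*, with the largest 22G-RNA change in *prg-1*, had an mRNA change of -0.23 (adjusted p = 0.07, limma) there.

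Directly between the mutants, 3 member mRNAs were higher and 1 lower in *mut-16* than in *prg-1*, where all mRNAs gave 9.58% higher and 5.8% lower and those of the other CSR-1 class loci 1.66% and 4.15%. *F10G7.10* (0.70 ± 0.05, adjusted p = 8.1e-06) and *lsl-1* (0.52 ± 0.06, adjusted p = 0.00012) were higher, and so was *mex-5* (0.42 ± 0.10, adjusted p = 0.01), all by limma. *mex-5* mRNA was at 1760, 1660 and 1631 normalized reads in *mut-16*, 1303, 1205 and 1253 in *prg-1* and 1933, 1487 and 1455 in wild type gonads, so the *prg-1* libraries were the lowest in mRNA as in 22G-RNAs. *eef-1G*, the gene of a translation elongation factor subunit, had 37439, 41137 and 41530 in *mut-16*, 47326, 53812 and 59975 in *prg-1* and 47363, 50410 and 52740 in wild type gonads (-0.42 ± 0.09, adjusted p = 0.0059, limma). That call was lost without *mut-16* replicate 1 (-0.37) or *prg-1* replicate 3 (-0.34), with equal library totals (-0.37) and with TMM (-0.38). Without *prg-1* replicate 1, 5 members were higher and 2 lower.

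Several members belong to germline gene groups. The list of oocyte and eggshell genes held 4 members (*mex-5*, *pos-1*, *oma-2* and *cpg-2*) among 29 CSR-1 class loci that averaged at least 100, which is 13.8%, where 2.74% of all such loci were members. The P granule list held 2 of 12, *cgh-1*, a DEAD-box helicase gene of germ granules, and *wago-1*. *wago-1* was also 1 of 8 WAGO Argonaute genes and *cgh-1* 1 of 17 germline RNA-binding genes. The remaining list entries were *tba-2* (1 of 36 cell division genes), *pbs-1* (1 of 30 proteasome genes), *his-72* (1 of 7 histone genes) and *fbxa-206* (1 of 7 F-box genes). Histone and tubulin genes have near-identical relatives, so reads of *his-72* and *tba-2* are uncertain. There were 0 members among 29 meiotic chromosome genes, 25 DNA replication genes, 13 ribosomal protein genes and 5 Mutator complex genes. Membership turns on the fold threshold of the rule, and lists with 0 members still held loci that passed as higher in *mut-16* (limma). Higher and lower were 14 and 0 of 30 tested oocyte and eggshell loci, and 14 and 3 of 31 meiotic chromosome loci. They were 10 and 1 of 25 DNA replication, 9 and 1 of 19 ribosomal protein and 3 and 2 of 6 Mutator complex loci. Of the 2849 CSR-1 class loci that averaged at least 100, 40.2% were higher and 6.77% lower.

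The mRNAs of these germline members did not pass in either mutant. *cpg-2* was at 26132, 25612 and 25611 normalized mRNA reads in *mut-16*, 25160, 25904 and 27403 in *prg-1* and 27193, 25750 and 25618 in wild type gonads, with overlapping groups. *wago-1* was at 29328, 29626 and 29937 in *mut-16*, 30281, 32412 and 34814 in *prg-1* and 29830, 31408 and 31381 in wild type gonads. *cgh-1* was at 4497, 4307 and 4802 in *mut-16*, 4577, 4296 and 4428 in *prg-1* and 6004, 5262 and 5778 in wild type gonads, so the mutants were lower in every library, by less than 1.3-fold (-0.32, adjusted p = 0.0037, and -0.36, adjusted p = 0.0012, limma). *his-72* mRNA was at 0.28 in *mut-16* and 0.25 in *prg-1* relative to wild type, *tba-2* at -0.16 and 0.05, *pbs-1* at 0.03 and -0.03 and *fbxa-206* at 0.16 and -0.19 on the log2 scale. Over the list of 34 oocyte and eggshell mRNAs the median was -0.11 in *mut-16* and -0.19 in *prg-1*, and 3 fell and 1 rose in *prg-1*.

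A list of genes of the CSR-1 pathway held 6 genes. Of these, 4 were CSR-1 class loci that averaged at least 100 and so could meet the rule, and 0 were members. Of 6 such genes, 1 mRNA was lower in *mut-16*, that of *csr-1* itself, at 7986 ± 68.5 normalized reads in *mut-16*, 10810 ± 449 in *prg-1* and 11017 ± 305 in wild type gonads (*mut-16* against wild type -0.46, adjusted p = 4.8e-05, limma). The polymerase gene *ego-1* was at 8355 ± 170 in *mut-16* and 9002 ± 379 in wild type gonads (-0.11, adjusted p = 0.11, limma). *cid-1* was at -0.20 (adjusted p = 0.0039) and the helicase gene *drh-3* at -0.16 (adjusted p = 0.044), both by limma and under 1.3-fold. *rha-1* was at -0.09 and *ekl-1*, a Tudor domain gene, at 0.00. The 22G-RNAs of *csr-1* averaged 2728 ± 178 in *mut-16* and 5110 ± 147 in wild type gonads, opposite in direction to the members (SD, n = 3). Those of *ego-1* averaged 2586 ± 25.3 and 2455 ± 96.3, and those of *drh-3* 768 ± 26.7 and 855 ± 57.5. Of the 4 loci of this list tested for 22G-RNAs, 1 passed as higher in *mut-16* and 1, *csr-1*, as lower (limma). Over all small RNA features 23.7% were higher and 33.6% lower.

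Each member was set against its own mRNA by dividing its 22G-RNA value by its mRNA value, which removes most of the effect of transcript length. The median was 37.1 22G-RNA reads per 100 mRNA reads in *mut-16*, 25.9 in *prg-1* and 19.2 in wild type gonads. For the other CSR-1 class loci it was 22.4, 19.8 and 18.3. In wild type the members were thus close to the other loci on this ratio. The quartiles of the members in wild type were 9.52 and 38.1, and those of the other loci were 9.68 and 36.5. The rule chose the members on the *mut-16* and wild type 22G-RNA values, so the rise between those groups follows from that choice. How the mutants stand to wild type on this ratio also depends on the scaling of the small RNA libraries.

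Few members were neighbours. Of 77 placed in the order of protein-coding genes of the RefSeq annotation, 4 (5.19%) were next to another member, where 1.64% of the other CSR-1 class loci were next to a member. The pairs were *F22G12.4* with *dock-11* and *wdr-48* with *F35G12.12*. A WAGO class locus was next to 15.6% of the members and 18.7% of the other loci. These pairs may share reads where transcripts overlap, which the files do not resolve.

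In wild type, most members had more mRNA and more 22G-RNAs in distal gonads than in whole animals. Member mRNAs were higher in gonads in 50 of 78 and lower in 2 (limma), where all 12761 mRNAs gave 26.1% higher and 52.6% lower and the other CSR-1 class loci 62.6% and 2.93%. The median log2 change was 0.48, close to 0.46 in those other loci. With equal library totals 34 were higher and 4 lower, where all 12828 mRNAs gave 2381 and 6923. Member 22G-RNAs were higher in gonads in 60 and lower in 0, where all 7191 small RNA features gave 31.9% higher and 23.2% lower and the other CSR-1 class loci 69.5% and 0.613%. At an unadjusted p under 0.05, 61 were higher and again 0 lower, and edgeR and DESeq2 on the recovered reads also called 0 lower. The wild type gonad libraries are those that chose the members. The whole animal small RNA libraries were shallow, with 505952 to 1642602 recovered reads and a median of 14, 45 and 14 reads per member in replicates 1 to 3, so single values there are imprecise. The summed mRNA of 16 intestine markers was 129 to 620 in gonads and 240989 to 255258 in whole animals.

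*mex-5* had the largest gonad excess of mRNA among the members, with 1939, 1429 and 1444 normalized reads in gonads and 750.9, 582.2 and 776.7 in whole animals (log2 1.19 ± 0.15, adjusted p = 9.1e-05, limma). *cgh-1* had 6023, 5058 and 5736 in gonads and 3010, 2520 and 2756 in whole animals (1.02 ± 0.09, adjusted p = 6.3e-06, limma). *sams-3*, an S-adenosylmethionine synthetase gene, was at 0.95 and the mitochondrial ribosomal protein gene *mrpl-17* at 0.93. The groups did not overlap in these 4 genes. *Y54G2A.18* was lower in gonads, with 1261, 1201 and 1225 in gonads and 1609, 1525 and 1681 in whole animals (-0.38 ± 0.07, adjusted p = 0.00049, limma), a call lost with TMM (-0.32), without gonad replicate 2 (-0.37) or without whole animal replicate 3 (-0.35). *F11G11.5* had 134.6, 134.6 and 128.7 in gonads and 181.8, 144.8 and 205.5 in whole animals (-0.40 ± 0.15, adjusted p = 0.034, limma). Its call was lost with any single gonad library left out (-0.41, -0.41 and -0.38), without whole animal replicates 1 (-0.38) or 3 (-0.29), and with TMM (-0.33).

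The 22G-RNAs of *mex-5* were at 211.5, 179.3 and 190.9 normalized reads in gonads and 77.9, 79.0 and 105 in whole animals (1.15 ± 0.16, adjusted p = 0.00087, limma), those of *Y54G2A.18* at 49.0, 49.4 and 49.9 in gonads and 24.6, 32.5 and 16.8 in whole animals (1.02 ± 0.26, adjusted p = 0.013, limma). *Y54G2A.18* was the 1 member whose mRNA was lower and whose 22G-RNAs were higher in gonads, and 38 members were higher in both. *lsl-1*, the leading member in *mut-16*, had 22G-RNAs at 80.6, 76.6 and 73.2 in gonads and 86.1, 64.9 and 50.4 in whole animals, which overlapped (0.22 ± 0.21, adjusted p = 0.38, limma). Its mRNA was higher in gonads, with 985, 996.4 and 954.4 in gonads and 558.2, 539.9 and 704.7 in whole animals (0.71 ± 0.11, adjusted p = 0.00024, limma).

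**Figure D5:**
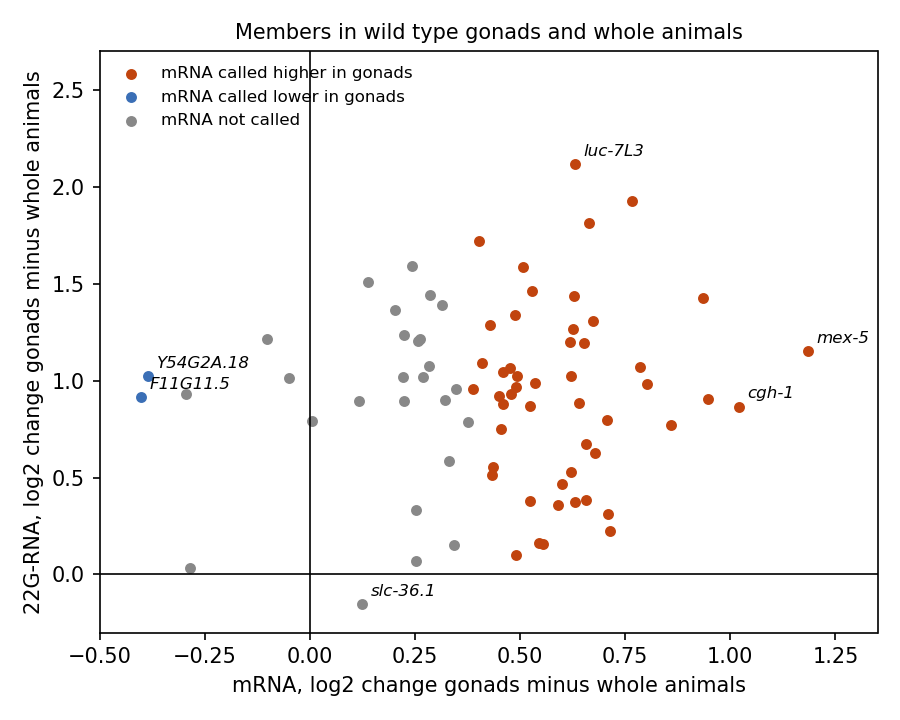
Log2 change of mRNA (horizontal) and of 22G-RNAs (vertical) in wild type distal gonads relative to whole animals for the 78 members, coloured by the mRNA test. Of the members, 50 passed as higher in mRNA and 2 as lower. *mex-5* (1.19) and *cgh-1* (1.02) lie farthest right, *Y54G2A.18* and *F11G11.5* farthest left, and *slc-36.1* is the 1 member below 0 in 22G-RNAs (-0.15).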

How the data were processed

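All tables hold signal values that were normalized before they were deposited. According to the study's methods, mRNA reads passed through Trimmomatic 0.35, STAR 2.5.0a and RSEM 1.3.0 (gene level), and small RNA reads were mapped with CASHX and assigned to features with in-house scripts. How the deposited values were scaled is not given in the sources used here. Depth of the mRNA libraries is not known from the files. In the small RNA tables every value is a whole multiple of 1 step per library (100% of values within 0.01 of a read), which gave back the reads. *prg-1* replicate 1 was left out of count tests, because its step is too close to 1.

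The unit checked in the files was not raw counts, so limma 3.58.1 (trend and robust moderation, R 4.3.3) was used on log2(value + 1), which understates changes of low features. Features needed a value of at least 10 in at least 3 libraries. The 9 gonad libraries of an assay shared 1 fit, and the 6 wild type libraries from gonads and from whole animals another. A call needed a Benjamini-Hochberg adjusted p below 0.05 over all features and at least 1.3-fold. Alternatives were RLE, equal library totals, TMM, pseudocounts, no filter, no fold threshold, a replicate block, other thresholds of the rule, each library left out, and, for small RNAs, TMM over miRNAs, edgeR 4.0.16 and DESeq2 1.42.0 on the recovered reads.

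The members and gene lists were chosen with earlier results of these data known. Named genes were the 12 members of largest ratio, the 10 of highest wild type mean, the 5 loci on each side of the threshold, those with the largest called mRNA changes (6 per direction in each gonad comparison, 4 for gonads against whole animals), every member of a list, and the CSR-1 pathway and mutated genes. Of the 78 members, 77 matched the RefSeq table of assembly WBcel235, used for names and gene order. Its build differs from that of the files, so positions, lengths and sequences were not used here. The study calls the samples biological replicates. Whether each came from a culture of its own is not given in the sources used here, and p-values measure the spread between these samples. Deviations of equal-numbered libraries correlated by 0.12, 0.55 and 0.36 for gonad mRNA of *mut-16* and wild type, so the numbers were taken to pair those libraries. The correlations had both signs elsewhere. They were 0.44, -0.16 and -0.41 for *prg-1* and wild type mRNA, and -0.06, 0.03 and -0.13 for *mut-16* and wild type small RNA. Whether the numbers mark a true pairing is therefore uncertain. The main fit left pairing out, and the replicate block was run as an alternative. The intestine, neuron, hypodermis and somatic gonad markers and the MATH and BTB genes also held 0 members. Transposon tables and whole animal mutants were not analysed here.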

Additional observations from a re-analysis of the deposited data

Results flagged for a closer look

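The mRNA changes of 4 members differed between the mutants by a direct test of *mut-16* against *prg-1* gonads (limma). *F10G7.10* was 0.70 higher on the log2 scale in *mut-16*, *lsl-1* 0.52 and *mex-5* 0.42, while *eef-1G* was at -0.42. All 3 *mut-16* libraries lay above all 3 *prg-1* libraries at the first 3 genes and below them at *eef-1G*. The *eef-1G* call was lost when *mut-16* replicate 1 or *prg-1* replicate 3 was left out, with values of -0.37 and -0.34, and also with equal library totals (-0.37) and with TMM (-0.38).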

How the results depend on the processing

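The scaling of libraries decided how many loci met the rule: 78 as deposited, 1787 with equal library totals, 8 with TMM and 1 with TMM over miRNAs. The members' median log2 ratio was 1.59, 0.66 and 0.054 under these, and 0.73 by edgeR. A ratio of at least 1.5 gave 431 loci and of at least 2 gave 29. Leaving out 1 library gave 72 to 86 loci and medians of 0.94 to 1.00.

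With no fold threshold the member mRNAs higher and lower were 14 and 6 in *mut-16* and 6 and 18 in *prg-1*. In *mut-16* against *prg-1* they were 23 and 5. All 9943 gonad mRNAs gave 1842 and 1252, 2417 and 1817, and 1476 and 1127 in turn. On the lower side stood 4 member mRNAs in gonads against whole animals and 4 member 22G-RNAs in *prg-1*. There 6841 of all 12761 mRNAs and 3968 of all 8031 small RNA features were lower. With TMM 1 member mRNA was lower in *mut-16*, 0 higher and 3 lower in *prg-1*, and 5 higher and 0 lower between the mutants. Of all 9920 mRNAs, 507 were lower in *mut-16*, 1980 higher and 1108 lower in *prg-1*, and 1039 and 500 between the mutants. With equal totals the member mRNAs higher and lower were 0 and 3 in *prg-1* and 6 and 0 between the mutants. All 9891 mRNAs gave 1996 and 988, and 1052 and 487. For member 22G-RNAs in *prg-1* the higher and lower counts were 17 and 13 with equal totals, 24 and 10 with TMM, and 0 and 44 with TMM over miRNAs. Over all small RNA features they were 537 and 4757, 624 and 4481, and 118 and 7012 in turn. Gonads had 4 lower member mRNAs with equal totals and 0 with TMM, where all mRNAs gave 6923 and 6655.

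The replicate block left 2 higher and 0 lower in *mut-16* mRNA. It gave 0 higher in *prg-1* mRNA, where *emr-1* lost its call at 0.39, and 1 lower in gonads against whole animals, where *F11G11.5* lost its call at -0.40, though equal numbers do not pair those libraries. Leaving out 1 library gave 2 to 3 higher and 0 to 2 lower in *mut-16* mRNA, 0 to 1 and 1 to 4 in *prg-1* mRNA, 3 to 5 and 0 to 2 between the mutants, 39 to 44 and 2 to 3 for *prg-1* 22G-RNAs, 43 to 53 and 0 to 2 for gonad mRNA, and 48 to 59 and 0 for gonad 22G-RNAs. *F10G7.10* and *lsl-1* kept their calls in *mut-16* under every alternative run. The causes were not tested. Whole animal small RNA depth limits the values there.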
